A study of Zea mays with 6 samples.

Results

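Maize (Zea mays) kernels were profiled by Illumina mRNA sequencing at 15 days after pollination, in 3 libraries of the o11 homozygous mutant and 3 libraries of Wild-type (WT) kernels. The loci described here had under 1 FPKM in all 3 WT libraries and at least 2 FPKM in all 3 o11 libraries, where FPKM is the number of fragments scaled by transcript length and library size. This rule was met by 46 of the 32666 loci in the deposited tables (0.141%). The same values chose the loci, so their difference between the genotypes is a description and carries no test. The labels name the tissue as kernel and the design text as endosperm, and they give neither the parent strain nor the number of ears behind a library. The loci carry no gene names, so neither the tissue nor the mutated gene could be checked against a marker.

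Opaque11 is a bHLH transcription factor that acts in endosperm, where the cereal kernel stores starch and protein. Such factors bind short DNA motifs and raise or lower the transcription of genes nearby, and mutants of this gene are known for small, opaque kernels. An FPKM table measures transcript levels in the whole sample, so fewer cells of a type and less RNA per cell cannot be told apart.

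The 46 loci were at low to moderate levels in o11 and, by the rule, under 1 FPKM in WT. Their median FPKM was 3.16, 4.31 and 5.53 in o11 replicates 1 to 3, against 0.210, 0.426 and 0.330 in WT replicates 1 to 3. Summed over the 46 loci, the o11 libraries held 238, 320 and 555 FPKM and the WT libraries 15.0, 21.3 and 15.9 FPKM. The mean over the o11 libraries lay from 2 to 3 FPKM for 8 loci, from 3 to 5 for 17, from 5 to 10 for 15 and at 10 or more for 6. Its median, 4.82 FPKM, stood at the 52.5th percentile of the o11 means of all loci, and the highest, 62.8 FPKM, at the 94.4th.

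**Figure D1:**
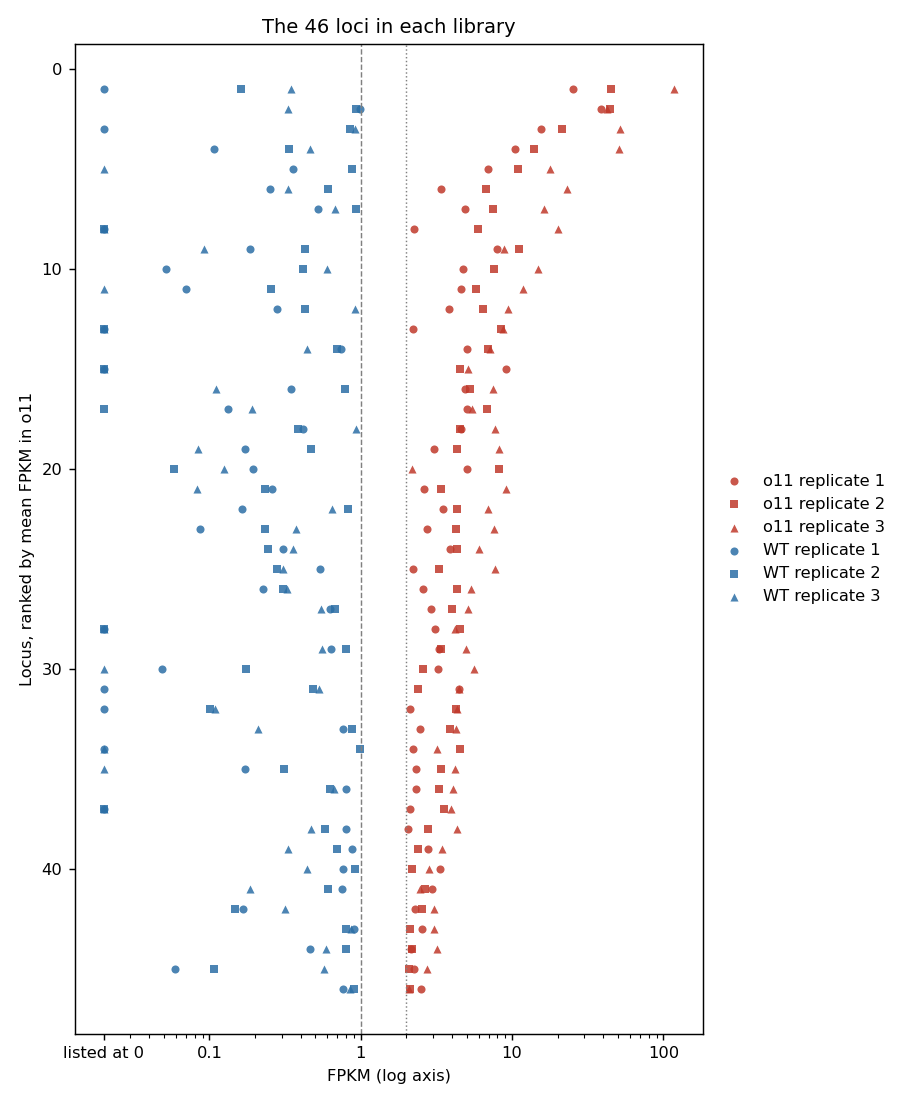
FPKM of the 46 loci (rows, ranked by their mean in o11) in each of the 3 o11 libraries (red) and 3 WT libraries (blue), on a log axis, with values of 0 drawn at the left edge; the dashed line is 1 FPKM and the dotted line 2 FPKM. The gap between the lines is set by the rule, while the width of the red points in a row shows the spread over o11 libraries, from 1.14-fold to 8.89-fold.

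The name silent holds only as a level under 1 FPKM. Of the 46 loci, 41 had a value above 0 in at least 1 WT library, and 20 stayed under 0.5 FPKM in all 3. Only 5 were listed at 0 in all 3 WT libraries. These were the loci on chromosome 2 (37520960 to 37521419), chromosome 3 (148071103 to 148072213), chromosome 5 (106130464 to 106130718) and chromosome 8 (29882503 to 29882922 and 170757829 to 170759121). A listed 0 can be a failed estimate, so no fold is given for them. For the other 41, the ratio of mean o11 to mean WT FPKM ran from 2.66 to 370 with a median of 13.5. It was at least 10 for 26 of them. In all, 15 of the 46 were listed at 0 in at least 1 WT library, the 5 above included. Among the 41, such a 0 entered the WT mean, so these ratios are uncertain too. The ratio of 370 is 1 of them (chromosome 3 at 222754576, with 0, 0.162 and 0.348 FPKM in WT). All positions are on B73 RefGen_v3 and count from 1.

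The depth behind these values was inferred from the values themselves. For loci without introns, low FPKM times length moves in whole steps once a fitted number of bases is subtracted from the length. That number was 259 to 306 in the 6 libraries. The steps gave the number of fragments that each library was scaled by, with any further scaling included. In units of 1000000 fragments it was 13.0, 19.3 and 16.7 for o11 replicates 1 to 3 and 14.3, 16.5 and 15.5 for WT replicates 1 to 3. Between 42.1% and 60.2% of the low loci in a library lay on the line of exactly 1 fragment. With these numbers, 12 of the 34 loci that could be assessed (35.3%) came out as whole fragments in all 6 libraries. This was within 0.05 of a fragment, with the full span of the locus as the transcript. The share was 29.9% for 3668 other loci at 2 FPKM or more in all o11 libraries. It was 32.2% for 7364 other loci under 1 FPKM in every WT library and above 0 in at least 1. These 12 held 13 to 325 fragments in an o11 library and 0 to 24 in a WT library.

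Single loci show what the rule meant in fragments. A locus on chromosome 5 (67502088 to 67503405) held 69, 135 and 93 fragments in o11 replicates 1 to 3, against 2, 0 and 3 in WT replicates 1 to 3. A locus on chromosome 2 (38970355 to 38971365) held 76, 153 and 106 fragments in o11, against 2, 5 and 1 in WT. In both, every o11 library lay far above every WT library, an order that the rule itself sets. At the other end, a locus on chromosome 8 (152510200 to 152511639) held 38, 47 and 40 fragments in o11, against 13, 17 and 15 in WT, so its WT transcript was counted in each library. Among the 12 loci in whole fragments, the fewest were 13, 38 and 23 in o11, against 0, 7 and 0 in WT, at a locus on chromosome 2 (108047593 to 108048320). There a count of 0 allows up to 0.446 FPKM in WT replicate 1 and 0.460 in WT replicate 3 (3 fragments each). Such limits cover counting error only.

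The most abundant of the 46 was the chromosome 3 locus at 222754576 to 222755800. It had 25.3, 45.0 and 118 FPKM in o11, against 0, 0.162 and 0.348 FPKM in WT. Its o11 libraries differed 4.68-fold among themselves. The second was a chromosome 8 locus (65622669 to 65624565) with 38.9, 44.5 and 42.1 FPKM in o11, against 0.993, 0.924 and 0.332 FPKM in WT. It had the most even o11 libraries of the 46, within 1.14-fold, and its WT values reached almost to the limit of the rule.

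Next came a chromosome 7 locus (168527748 to 168528586) with 15.4, 21.3 and 51.7 FPKM in o11, against 0, 0.846 and 0.911 FPKM in WT. A chromosome 6 locus (39529235 to 39530882) had 10.4, 13.9 and 51.0 FPKM in o11, against 0.107, 0.335 and 0.461 FPKM in WT. In both, replicate 3 was the highest of the o11 libraries by a wide margin. A chromosome 3 locus (195461807 to 195462524) had 6.98, 10.9 and 17.7 FPKM in o11, against 0.359, 0.874 and 0 FPKM in WT. A chromosome 1 locus (295340755 to 295341847) had 3.37, 6.69 and 22.99 FPKM in o11, against 0.251, 0.611 and 0.329 FPKM in WT. In o11 these were 36, 103 and 307 fragments, against 3, 8 and 4 fragments in WT.

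The other 6 of the 12 most abundant had o11 means of 6.55 to 9.53 FPKM. A chromosome 8 locus (170757829 to 170759121) was listed at 0 in all 3 WT libraries and had 2.25, 5.96 and 19.98 FPKM in o11, the widest spread of the 46 (8.89-fold). A chromosome 2 locus (89002832 to 89004935) had 4.57, 5.76 and 11.7 FPKM in o11, against 0.0705, 0.256 and 0 FPKM in WT. Its mean o11 level was 67.6 times its mean WT level, with the listed 0 of WT replicate 3 included. A chromosome 2 locus (38970355 to 38971365) had 7.91, 11.1 and 8.84 FPKM in o11, against 0.185, 0.426 and 0.0917 FPKM in WT, and here replicate 2 was the highest. A chromosome 6 locus (145684161 to 145685767) had 4.72, 7.62 and 14.8 FPKM in o11, against 0.0517, 0.417 and 0.596 FPKM in WT. Its 3 libraries rank alike in both genotypes. The same held for the chromosome 3 loci at 222754576 and 10690423, the chromosome 6 locus at 39529235 and the chromosome 7 locus at 168527748. It held for no other of the 12. A chromosome 7 locus (164239820 to 164242430) had 4.87, 7.46 and 16.3 FPKM in o11, against 0.518, 0.926 and 0.677 FPKM in WT. A chromosome 3 locus (10690423 to 10692428) had 3.85, 6.38 and 9.41 FPKM in o11, against 0.279, 0.426 and 0.913 FPKM in WT. The lowest o11 value of these 6 loci was 2.25 FPKM, while the limits of 2 FPKM in o11 and 1 FPKM in WT were set by the rule.

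Replicate 3 of o11 was the highest o11 library for most of the 46 loci. It was highest for 35 of them (76.1%), replicate 2 for 6 and replicate 1 for 5. Replicate 1 was the lowest for 35. For 15881 other loci with at least 2 FPKM in all o11 libraries and a mean up to 62.8 FPKM, replicate 3 was highest for 43.5% and replicate 1 lowest for 37.3%. The difference between these shares was not tested, since loci of 1 library are not replicates. The replicate 1 libraries of both genotypes also differ from the others in the tools listed by the submitters, Bowtie against TopHat and Cufflinks, and the part of this in the pattern was not tested.

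The spread over o11 libraries was wide. The ratio of the highest to the lowest o11 value had a median of 1.93, against 1.38 for the 15881 other loci, and it was at least 2 for 22 of the 46 (47.8%, against 14.3%) and at least 3 for 11 (23.9%, against 3.61%). Replicate 3 was at least 2 times the mean of replicates 1 and 2 for 12 loci (26.1%, against 3.77%) and below that mean for 7. Among the 21 loci with an o11 mean of 5 FPKM or more, where counting error is smaller, the median ratio was 2.70. It was 1.37 for 13163 other loci with a mean from 5 to 62.8 FPKM. Those were longer (median span 4307 bp, against 1419 bp for the 21) and were not matched in level or fragments. The part of counting error in the difference was not tested.

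Loci that WT already expressed and that were higher in o11 leaned the same way, with smaller shares. These were 385 loci with at least 1 FPKM in every WT library and at least 2 FPKM in every o11 library. Their o11 mean was at least 2 times the WT mean and at most 62.8 FPKM, with no overlap between the genotypes. Replicate 3 was the highest o11 library for 67.8% of them and at least 2 times the mean of replicates 1 and 2 for 14.5%, and the median ratio of highest to lowest was 1.63. The difference from the 46 loci was not tested. Loci found with the genotypes exchanged, described below, also leaned to replicate 3. It was the highest WT library for 62.5% of those 16, against 39.2% of other loci on in WT.

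**Figure D2:**
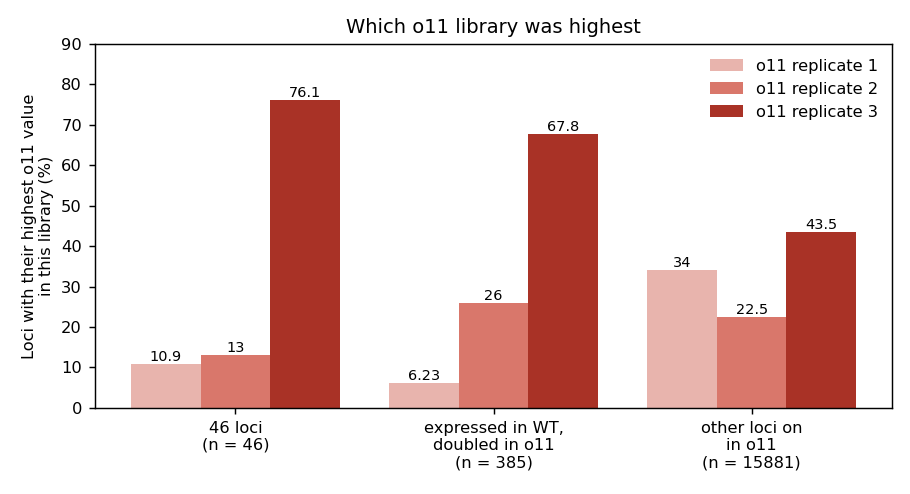
Share of loci (percent) whose highest o11 value was in o11 replicate 1, 2 or 3, for the 46 loci, for 385 loci expressed in WT and at least doubled in o11, and for 15881 other loci on in o11. Both comparison sets had at least 2 FPKM in every o11 library and an o11 mean up to 62.8 FPKM. Replicate 3 led for 76.1%, 67.8% and 43.5% of the 3 sets.

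Among loci with an o11 mean of at least 5 FPKM, the 4 with the widest spread were the chromosome 8 locus at 170757829 (8.89-fold), the chromosome 1 locus at 295340755 (6.81-fold), the chromosome 6 locus at 39529235 (4.91-fold) and the chromosome 3 locus at 222754576 (4.68-fold). In all 4, replicate 3 was highest and replicate 1 lowest. The 4 most even were the chromosome 8 locus at 65622669 (1.14-fold), the chromosome 5 locus at 67502088 (1.35-fold), the chromosome 2 locus at 38970355 (1.40-fold) and a chromosome 8 locus at 21394179 (1.42-fold). Of these even loci, the first 3 had their highest value in replicate 2. The fourth had 5.03, 6.92 and 7.15 FPKM in o11, against 0.739, 0.701 and 0.442 FPKM in WT. A locus on chromosome 1 (300818531 to 300819949) went the other way, with 5.04, 8.23 and 2.17 FPKM in o11, against 0.194, 0.0582 and 0.125 FPKM in WT, and was chosen for mention after its values were seen.

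With the genotypes exchanged, the rule found fewer loci. Only 16 loci had under 1 FPKM in all 3 o11 libraries and at least 2 FPKM in all 3 WT libraries, against 46 in the first direction. The 46 were 0.495% of the 9299 loci under 1 FPKM in every WT library, and the 16 were 0.178% of the 9011 loci under 1 FPKM in every o11 library. The first count was the larger at every level tried: 193 against 69 loci at 1 FPKM or more in the expressing genotype, 14 against 3 at 4, 8 against 3 at 5, 4 against 0 at 10 and 2 against 0 at 20. Each is a count from the same 6 libraries and no test was made of their difference. The count of 46 became 90 without o11 replicate 1 and 86 without WT replicate 2, and the 16 became 29 without WT replicate 1. A rule over fewer libraries is easier to meet.

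**Figure D3:**
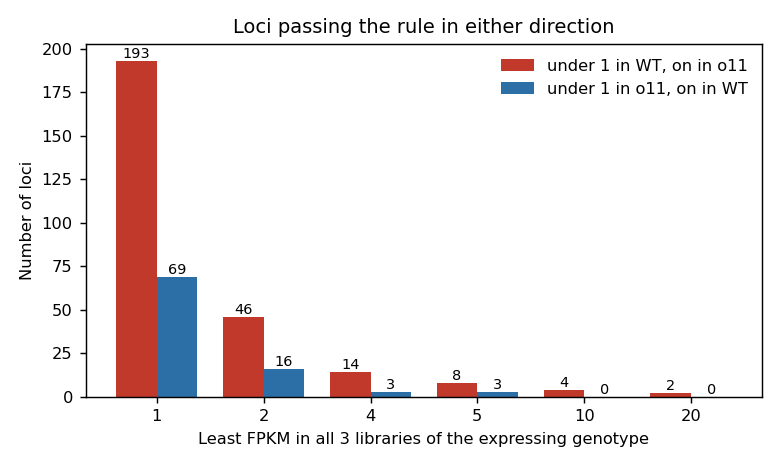
Number of loci under 1 FPKM in all 3 WT libraries and at or above the FPKM on the horizontal axis in all 3 o11 libraries (red), beside the number with the genotypes exchanged (blue). At 2 FPKM the counts are 46 and 16, and at 10 FPKM they are 4 and 0.

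Loci in general were compared the same way. Outside the 46 and the 16, the number of loci with at least 2 FPKM was 19197, 19891 and 19130 in o11 replicates 1 to 3, against 18617, 19541 and 18506 in WT replicates 1 to 3. The o11 library was higher in each replicate number, and the means were 19406 ± 421 in o11 and 18888 ± 568 in WT (SD, n = 3 each). The groups overlapped, and the difference of 518 loci did not pass a two-sided exact permutation test (p = 0.3, where 0.1 is the smallest possible). Between libraries of the same replicate number the o11 library had 580, 350 and 624 more such loci for replicates 1 to 3. An exact sign-flip permutation test of these pairs, two-sided and added after seeing the data, gave p = 0.25, the smallest that 3 pairs allow. Neither test could reach 0.05 with 3 libraries per genotype.

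The 16 exchanged loci were also less abundant. Their mean over WT libraries had a median of 3.92 FPKM and a highest value of 15.1 FPKM. The highest was a chromosome 3 locus (14951026 to 14951377), listed at 0 in all 3 o11 libraries and at 3.59, 15.0 and 26.8 FPKM in WT. Its span is 352 bp, while 259, 302 and 306 bases were subtracted from each length in WT replicates 1 to 3. The level of this locus is therefore uncertain. A chromosome 10 locus (110105805 to 110106399) had 0.957, 0.693 and 0.397 FPKM in o11, against 5.61, 15.1 and 17.0 FPKM in WT. In both, WT replicate 1 was the lowest of the WT libraries. A chromosome 8 locus (42015205 to 42018417) had 0.278, 0.0955 and 0.165 FPKM in o11, against 9.02, 6.68 and 10.3 FPKM in WT. A chromosome 2 locus (57736223 to 57738785) had 0.329, 0.465 and 0.0880 FPKM in o11, against 5.45, 5.67 and 12.2 FPKM in WT. A chromosome 9 locus (147639985 to 147640849) had 0.167, 0.474 and 0.545 FPKM in o11, against 2.35, 2.95 and 8.48 FPKM in WT. Over the 16, replicate 3 was the highest WT library for 10 (62.5%) and replicate 1 the lowest for 10 (62.5%). Among 8842 other loci with at least 2 FPKM in all WT libraries and a mean up to 15.1 FPKM, the shares were 39.2% and 36.1%. The ratio of highest to lowest WT value was at least 2 for 31.2% of the 16, against 20.8%. It was at least 3 for 18.8%, against 5.99%. These differences were not tested.

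Loci lay on both sides of the rule's limits. The member nearest to it was the chromosome 2 locus at 108047593, with 2.20, 4.56 and 3.17 FPKM in o11, against 0, 0.993 and 0 FPKM in WT. Next to it inside were the chromosome 8 locus at 65622669, described above, and a chromosome 9 locus (149912584 to 149914098) with 2.05, 2.78 and 4.34 FPKM in o11, against 0.797, 0.581 and 0.468 FPKM in WT. Just outside lay a chromosome 6 locus (44759448 to 44760469) with 1.998, 3.77 and 6.90 FPKM in o11, against 0.626, 0.484 and 0.312 FPKM in WT. A chromosome 4 locus (168773364 to 168776492) missed it with 2.18, 1.998 and 2.64 FPKM in o11, against 0.811, 0.744 and 1.004 FPKM in WT. A chromosome 7 locus (153219518 to 153220328) missed it with 2.001, 2.61 and 3.59 FPKM in o11, against 1.01, 0.713 and 0.640 FPKM in WT. A further 60 loci under 1 FPKM in every WT library reached 2 FPKM in all but 1 of the o11 libraries, and for 44 of the 60 the missing library was o11 replicate 1.

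The 46 loci lay on all 10 chromosomes and none on the plastid or mitochondrial genome or on a scaffold. Chromosome 8 held 10 of them (21.7%), against 8.76% of the loci under 1 FPKM in every WT library, and chromosome 5 held 7 (15.2%, against 10.6%). Chromosome 1, with 14.8% of those loci, held 4 (8.70%), and chromosome 10 held 1. On chromosome 8, 5 of the 10 lay beyond 150 Mb, among 219 loci under 1 FPKM in every WT library (2.28%, against 0.495% over the genome). The window was chosen after the positions were seen, and none of the 16 exchanged loci lay in it. All 5 loci on chromosome 2 lay between 30 and 110 Mb, among 262 loci under 1 FPKM in every WT library (1.91%), and this stretch also held 4 of the 16 exchanged loci. The first 35 Mb of chromosome 4 held 2 of the 46 among 202 such loci (0.99%), and the first 30 Mb of chromosome 7 held 0 among 151. These windows too were chosen with the positions known, and none of the shares was tested.

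**Figure D4:**
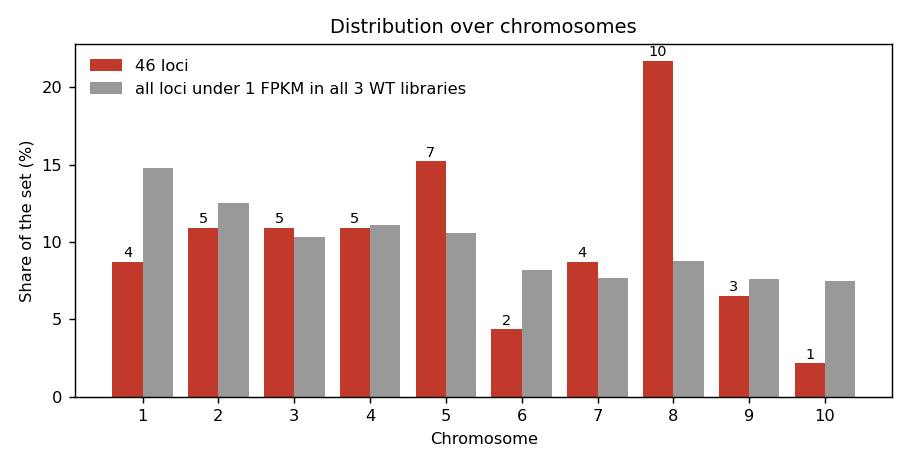
Share of the 46 loci on each chromosome (red, with the number of loci above the bar) beside the share of all 9299 loci under 1 FPKM in every WT library (grey). Chromosome 8 held 10 of the 46, or 21.7%, against 8.76% of the grey set.

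The loci lay singly. The closest pair, on chromosome 2 at 37520960 and 38970355, was 1.45 Mb apart, no locus was next to another of the 46, and the median distance to the nearest of them on the chromosome was 8.49 Mb. Their surroundings held a median of 36 loci within 1 Mb on either side, against 35 for the other loci under 1 FPKM in WT and 38 for all loci. The range was wide, from 5 around the chromosome 2 locus at 93759614 to 103 around the chromosome 8 locus at 170757829. The outer 20% at either end of a chromosome held 29 of the 46 (63.0%), against 53.1% of the other loci under 1 FPKM in every WT library, 57.5% of all loci and 8 of the 16 exchanged loci.

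The loci were short. Their median span was 1644 bp, against 1928 bp for other loci under 1 FPKM in every WT library, 3052 bp for all loci on the chromosomes and 4165 bp for the 15881 other loci on in o11. Under 2000 bp were 31 of the 46 (67.4%), against 18.8% of those 15881 and 42.3% of the 385 loci doubled in o11. The share was not counted for other loci under 1 FPKM in WT, whose median of 1928 bp is itself below 2000 bp. The longest was a chromosome 4 locus of 24826 bp (11067547 to 11092372) with 2.79, 2.40 and 3.42 FPKM in o11, against 0.878, 0.698 and 0.331 FPKM in WT. The shortest spanned 255 bp, on chromosome 5 at 106130464, and had 9.10, 4.52 and 5.11 FPKM in o11. A span of that size is shorter than the bases subtracted from each length in the FPKM (259 to 306 in the 6 libraries), so its level is uncertain.

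Of the 46, 3 shared their interval with another locus of the tables, as 5.75% of all loci did. On chromosome 5 (32938919 to 32942309) the member had 2.30, 3.39 and 4.22 FPKM in o11, against 0.171, 0.313 and 0 FPKM in WT. The locus with the same interval had 5.13, 7.11 and 10.6 FPKM in o11, against 3.32, 4.27 and 8.18 FPKM in WT. It rose in limma when replicate number entered as a block (log2 change of FPKM + 1 of 0.49, adjusted p = 0.0432), but did not pass without the block (adjusted p = 0.612). On chromosome 8 (156417291 to 156423034) the member had 4.58, 4.50 and 7.74 FPKM in o11, against 0.417, 0.386 and 0.935 FPKM in WT, while its partner had 5.68, 4.05 and 5.55 FPKM in o11, against 3.59, 4.05 and 4.96 FPKM in WT. On chromosome 9 (151739975 to 151749193) the member had 2.32, 3.28 and 4.04 FPKM in o11, against 0.799, 0.627 and 0.666 FPKM in WT, and its partner had 12.8, 13.4 and 11.9 FPKM in o11, against 13.2, 11.1 and 14.5 FPKM in WT. The chromosome 8 and 9 partners did not pass in limma with or without the block (adjusted p = 0.325 and 0.923 with it). How reads were divided between loci of 1 interval is not given in the sources used here, so these 3 are uncertain.

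The nearest loci on each side were not chosen by the rule and could be tested. The 46 loci had 95 such neighbours, at a median distance of 40.8 kb and from 73 bp to 600 kb away. Of these, 24 (25.3%) were under 1 FPKM in all 6 libraries, against 25.2% of all loci, and 45 (47.4%) were at 2 FPKM or more in all 6, against 50.3%. For 4 loci every neighbour was under 1 FPKM in all libraries.

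Without the replicate block, limma called 0 of the 61 tested neighbours, where 0.52% of the 22314 tested loci rose and 0.273% fell. At an unadjusted p under 0.05 were 8 of the 61 (13.1%), against 14.9% of all tested loci. With the block 10 of the 61 rose (16.4%, against 9.83% of all tested loci) and 2 fell (3.28%, against 9.33%). Of the 10, 1 on chromosome 8 (156410017 to 156411129) was under 1 FPKM in every WT library and passed the filter on low values through o11 alone. Without loci that passed in 1 genotype alone, an alternative added after seeing the data, 9 of 60 neighbours rose (15.0%, against 9.28% of 22052 loci) and 2 fell (3.33%, against 9.23%). The median log2 change of the neighbours was 0.00, as over all tested loci. The genotypes did not overlap for 6 of the 61 higher in o11 and 4 lower. Of the 6, 1 was the chromosome 8 locus that passed the filter through o11 alone and so had to differ. Over all tested loci, with those that passed in 1 genotype alone included, the shares were 9.86% and 11.7%. The difference between neighbours and other loci was not tested. Within 5 kb of a member lay 22 neighbours, 17 of them tested, of which 1 rose and 1 fell with the block.

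**Figure D5:**
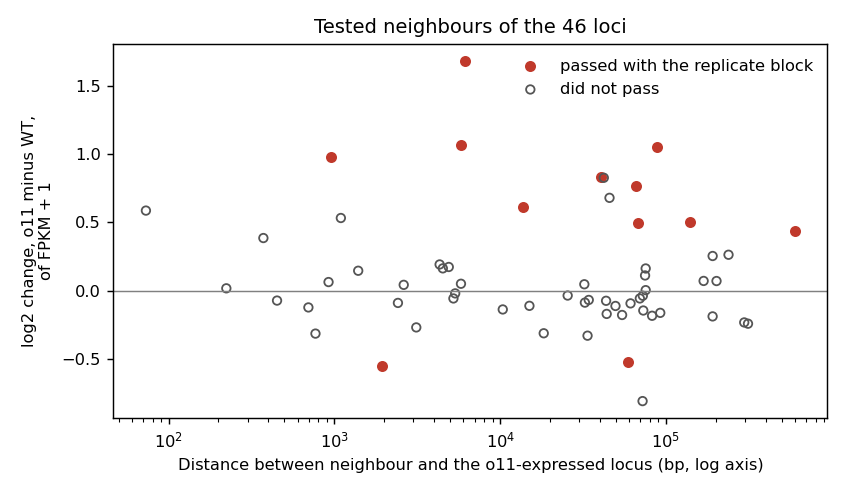
Log2 change (o11 minus WT, of FPKM + 1) of the 61 tested neighbours against their distance from the nearest of the 46 loci (log axis); filled points passed an adjusted p of 0.05 in limma with the replicate block. Of the filled points 10 are above 0, 1 of which passed the filter on low values through o11 alone, and 2 are below, and they lie at distances from 959 bp to 600 kb.

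The neighbour with the largest change lay 6161 bp from the chromosome 8 member at 156417291. This locus (156410017 to 156411129) had 1.77, 3.47 and 3.25 FPKM in o11, against 0, 0.171 and 0.367 FPKM in WT, and missed the rule only in o11 replicate 1. Under 1 FPKM in every WT library, it passed the filter on low values through the o11 libraries alone and so had to differ. Its log2 change of 1.68 is therefore given with no p. Next to the chromosome 1 member at 295340755, a locus 5800 bp away (295347648 to 295351317) had 26.9, 26.1 and 35.2 FPKM in o11, against 11.5, 14.0 and 15.0 FPKM in WT. Its groups did not overlap, with a log2 change of 1.07 (limma adjusted p = 0.0618 without the block and 0.00671 with it). A locus 959 bp from the chromosome 8 member at 166707310 had 7.92, 12.2 and 10.8 FPKM in o11, against 3.95, 5.75 and 4.42 FPKM in WT (log2 change 0.98, limma adjusted p = 0.102 without and 0.00930 with the block). The 12 neighbours called with the block were singled out after their values were seen.

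Around the most abundant member, the levels were low on both sides. Left of the chromosome 3 locus at 222754576, at 47032 bp, a locus (222705614 to 222707543) was listed at 0 in all 3 WT libraries and had 0.764, 0.837 and 1.93 FPKM in o11, too low for the test. The locus to the right, at 54242 bp, was listed at 0 in all 3 o11 libraries and had 0, 0.1198 and 0 FPKM in WT. By contrast, the chromosome 7 member at 164239820 stood 73 bp and 373 bp from loci expressed in both genotypes. The first of these had 16.5, 24.7 and 23.5 FPKM in o11, against 9.0, 13.4 and 21.6 FPKM in WT, and the second 16.6, 22.03 and 32.9 FPKM in o11, against 12.8, 19.4 and 21.0 FPKM in WT. Neither passed in limma with or without the block. The chromosome 7 member at 168527748 stood 697 bp from a locus with 26.5, 20.1 and 28.6 FPKM in o11, against 29.1, 25.6 and 26.7 FPKM in WT, which overlapped. The chromosome 8 member at 170757829 stood 223 bp from a locus with 27.7, 24.9 and 30.2 FPKM in o11, against 26.4, 25.5 and 29.8 FPKM in WT. The tables carry no strand, and the part of reads from an expressed neighbour in a member's level was not tested.

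The same limma fits called 26 of the 46 loci without the replicate block and all 46 with it (against 0.52% and 9.83% of tested loci that rose). The rule used this contrast, so nothing is read from these counts.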

How the data were processed

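The deposited values are FPKM, 1 value per locus and library, per the file headers. Per the submitters' processing notes, the build was B73 RefGen_v3, with Bowtie 0.12.2 listed for the replicate 1 libraries and TopHat and Cufflinks for the others. The annotation, strand setting and further scaling are not given in the sources used here, and the loci were not paired with gene names. Starts count from 0 in the files and from 1 here.

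The 46 loci, the comparisons and the named loci were chosen with earlier results of these data known. Named were the 12 most abundant, those nearest the limits, the 4 most and 4 least even over o11 libraries, and the 5 most abundant exchanged loci. The test was limma 3.58.1 (R 4.3.3) on log2(FPKM + 1) of loci reaching 1 FPKM in 3 or more libraries (mean-variance trend, Benjamini-Hochberg adjustment over 22314 loci, threshold 0.05), a scale that understates changes of low loci. Deviations of same-numbered libraries correlated at 0.75, 0.67 and 0.76 (Pearson's r over loci, limit 0.1), so the replicate numbers were taken to pair the libraries, from the data and not the labels. Blocked values are therefore given too. Whether libraries came from separate plants is not stated, so the p-values reflect variation among the libraries, which may be technical. Fragment totals came from loci of 400 to 5000 bp on the line of 1 fragment.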

Additional observations from a re-analysis of the deposited data

How the results depend on the processing

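The count of 46 loci became 20 at under 0.5 FPKM in WT, 193, 14, 8, 4 and 2 at 1, 4, 5, 10 and 20 FPKM in o11, 260 by genotype means, 100 in the replicate 2 and 3 libraries alone, and 51 to 90 with 1 library left out. The 16 exchanged loci became 6, then 69, 3, 3, 0 and 0 at the same levels in WT, 92, 31, and 18 to 29. The levels of 5, 10 and 20 FPKM were added after the data were seen. Upper-quartile scaling gave 47 loci, 45 of them among the 46, and 15 exchanged loci; quantile normalization gave 38, of which 35 were among the 46, and 16. The 177 calls over all loci became 4276 with the replicate block, 93 with no filter on low values, 476 in the replicate 2 and 3 libraries alone with the block and 0 without it by limma (2219 with unadjusted p below 0.05), and 2 to 14 with 1 library left out. The 0 neighbour calls became 12 with the replicate block (11 without the neighbour that passed the filter on low values in o11 alone) and 1 each with upper-quartile scaling, quantile normalization, no mean-variance trend, and the replicate 2 and 3 libraries alone with the block. With 3 neighbours on each side they were 0 without the block (26 of 198 at an unadjusted p under 0.05) and, added later, 41 with it. The difference in loci detected stayed above 0 under the alternatives run, from 276 to 845 with 1 library left out; pairing by replicate number, the replicate block for this value, left it at 518. A rule over fewer libraries is easier to meet; other causes were not tested. Among the 12 loci that came out as whole fragments, the fewest in an o11 library were 13, at 2.20 FPKM. Loci under 500 bp were not assessed and may rest on fewer. Such low numbers limit what the spread of a locus near 2 FPKM can show.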

Other observations

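A further 66 loci had at least 2 FPKM in all 3 o11 libraries and under 1 FPKM in all but 1 of the WT libraries. Of the loci under 1 FPKM in every WT library, 60 reached 2 FPKM in all but 1 of the o11 libraries and 191 in 1 o11 library alone, while of those under 1 FPKM in every o11 library 20 reached it in all but 1 of the WT libraries and 102 in 1 WT library alone. The missing library was replicate 1 for 44 of the 60 and for 13 of the 20.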
